A study of Rattus norvegicus with 12 samples.

Results

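The genes described here build the scaffold of the sarcomere, the contractile unit of striated muscle, or mark its proteins for breakdown. They were taken by symbol from the table of all genes: titin (Ttn), the myosin-binding proteins C (Mybpc3, Mybpc2), the myomesins of the M-band (Myom1, Myom2), nebulette and nebulin (Nebl, Neb), and the muscle ubiquitin ligases Trim63 and Fbxo32. Of these 9 genes, 7 had a row among the 14636 genes; Ttn and Neb were not analysed here. Neonatal cardiomyocytes and cardiac fibroblasts of Sprague Dawley rats aged 2 days were parted on a Percoll gradient and transfected with a pair of siRNAs against Yap at 25 nM each, or with a universal negative control siRNA. Poly-A RNA was taken 48 h later. All 4 groups were primary cultures of unmodified rats and held 3 libraries each: cardiomyocytes with control siRNA (CM_neg) or Yap siRNA (CM_yap), and fibroblasts with control siRNA (CF_neg) or Yap siRNA (CF_yap). Whether replicate libraries stem from different animals or cultures is not stated in the labels, so p-values measure only the spread between these libraries.

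In a sarcomere, thick myosin filaments are held in register at the M-band by myomesins, which cross-link them and bind titin, the giant elastic protein that runs from the Z-disc to the M-band. Myosin-binding protein C sits on the thick filament and tunes how myosin meets actin, and nebulette binds actin close to the Z-disc of heart muscle. Trim63 (MuRF1) binds titin at the M-band and tags thick filament proteins with ubiquitin, while Fbxo32 (atrogin-1) is the substrate-binding part of another muscle ubiquitin ligase. In the heart, Mybpc3 is the cardiac form of myosin-binding protein C and Mybpc2 is the fast skeletal form. Myom1 is made in all striated muscle, whereas Myom2 encodes M-protein, known from fast muscle fibres and mature heart. Yap is a coactivator that acts through TEAD transcription factors, and TEAD sites (M-CAT elements) are known from the promoters of many muscle genes.

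Summed values lay between 563193.5 and 620119.3 per library in FPKM, which counts fragments relative to transcript length and to the mapped fragments of the library, and the read depth is unknown. Yap1 itself fell to 9.11% of control in cardiomyocytes and 12.1% in fibroblasts. Of 10 cardiomyocyte markers, all were above 0 in every group, and their summed level was 28300.5 to 30954.3 FPKM in CM_neg and 1050.4 to 1114.3 FPKM in CF_neg. Of 10 fibroblast markers, all were above 0 as well, with sums of 346.0 to 502.1 FPKM in CM_neg and 16740.4 to 17713.1 FPKM in CF_neg. Each culture was thus dominated by the markers of its labelled cell type, with markers of the other type above 0. In these bulk libraries, fewer cells of a type and less RNA per cell cannot be told apart. Genes averaging 0.5 FPKM or more over the 12 libraries were tested on the log2(FPKM + 1) scale, on which changes of low genes come out too small. A gene was called at a limma adjusted p under 0.05, adjusted by Benjamini-Hochberg over all 11302 genes tested, and all 7 genes entered the tests.

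Promoter letters are given to show which known muscle and Yap-related motifs lie close to their starts. RefSeq windows on GRCr8, a later assembly than that of the deposited table, were found for 5 of the 7 genes, not for Fbxo32 and Myom2. Motifs searched on both strands, in the 250 bases before the gene start, were the TEAD core CATTCC, which reads GGAATG on the other strand, the FOXO core GTAAACA, which reads TGTTTAC on the other strand, the MEF2 box and the SRF CArG box. Bases that another annotated start of the same gene would transcribe are left out below, and capitals mark motif matches.
Mybpc2 (GRCr8 chr1:104154102.0-104154351.0, minus strand): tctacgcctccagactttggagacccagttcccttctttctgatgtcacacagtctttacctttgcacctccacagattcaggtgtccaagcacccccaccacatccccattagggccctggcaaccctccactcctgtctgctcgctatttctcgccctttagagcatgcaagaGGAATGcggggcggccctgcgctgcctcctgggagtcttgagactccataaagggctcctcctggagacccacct
Trim63 (GRCr8 chr5:151816986.0-151817208.0, plus strand): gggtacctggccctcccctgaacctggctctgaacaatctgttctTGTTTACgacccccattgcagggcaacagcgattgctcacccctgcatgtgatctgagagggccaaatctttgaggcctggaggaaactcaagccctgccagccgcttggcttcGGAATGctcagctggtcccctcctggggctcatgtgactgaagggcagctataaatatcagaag
Mybpc3 (GRCr8 chr3:97550811.0-97550973.0, plus strand): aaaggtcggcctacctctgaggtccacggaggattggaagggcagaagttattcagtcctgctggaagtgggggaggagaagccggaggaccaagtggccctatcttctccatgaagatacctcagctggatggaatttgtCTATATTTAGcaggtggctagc
Mybpc2 held the TEAD core at 75 to 70 bases before its start, and Trim63 held it at 91 to 86 bases before its start, in both cases on the other strand. Trim63 also held the FOXO core, at 205 to 199 bases before its start, and Mybpc3 held a MEF2 box at 109 to 100 bases. The windows of Nebl and Myom1 lie inside the annotated genes, before a shorter transcript, and are not printed; the Nebl window held a CArG box and the Myom1 window held none of the motifs. Over 33469 windows of the same length, 12.1% held the TEAD core, 3.21% the FOXO core, 2.96% a MEF2 box and 1.5% a CArG box. A match is a string of letters and does not show that a factor binds there.

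With control siRNA, 6 of the 7 genes were far higher in cardiomyocytes than in fibroblasts, and Fbxo32 was 2.52 times higher. All 7 were called higher. Mybpc2, at 0.467 FPKM in CF_neg and 0.333 FPKM in CF_yap, passed the filter on low values through cardiomyocytes alone, so its higher call was favoured. Of all genes tested, 68.4% were called, 42% higher and 26.4% lower (4744 and 2982 genes; 3831 and 3743 with median-of-ratios scaling, 3455 and 4227 with quantile normalization). In none of the 7 did the groups overlap, as for 44.9% of tested genes in the higher and 28.4% in the lower direction. FPKM is per length, so levels are set beside each other here, though the transcript lengths used are not given. Mybpc3 led in CM_neg at 246.7 ± 30.4 FPKM (SD, n = 3), ahead of Myom1 at 110.8 ± 7.33, Myom2 at 87.8 ± 14.4 and Nebl at 67.3 ± 12.2. Trim63 followed at 43.3 ± 6.03 FPKM, Fbxo32 at 14 ± 4.9 and Mybpc2 at 9.22 ± 0.372 (SD, n = 3 each). The libraries of Myom1 and Myom2 overlapped in CM_neg, as did those of Myom2 and Nebl, and the other neighbours in this order did not overlap. By mean FPKM, Mybpc3 ranked 382nd, Myom1 871st and Mybpc2 6849th among the 14636 genes of the table.

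In CF_neg the order was another one, with Fbxo32 on top at 5.54 ± 1.09 FPKM and Mybpc3 next at 3.13 ± 0.33 (SD, n = 3). Myom1 stood at 1.85 ± 0.21 FPKM, and Nebl, Trim63, Myom2 and Mybpc2 had means of 0.713 to 0.467 FPKM whose neighbours overlapped. On the log2 scale cardiomyocytes exceeded fibroblasts by 5.90 ± 0.09 (SE) for Mybpc3, 5.81 ± 0.10 for Myom2, 5.30 ± 0.15 for Nebl and 5.29 ± 0.08 for Myom1. By log2 difference, Mybpc3 ranked 9th and Myom2 13th of the 11302 genes tested. Trim63 differed by 4.73 ± 0.11, Mybpc2 by 2.81 ± 0.13 and Fbxo32 by 1.16 ± 0.20, and the largest of the 7 adjusted p-values was 8.15e-05, for Fbxo32. For Mybpc2 this direction was favoured by the filter, as given above.

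**Figure D1:**
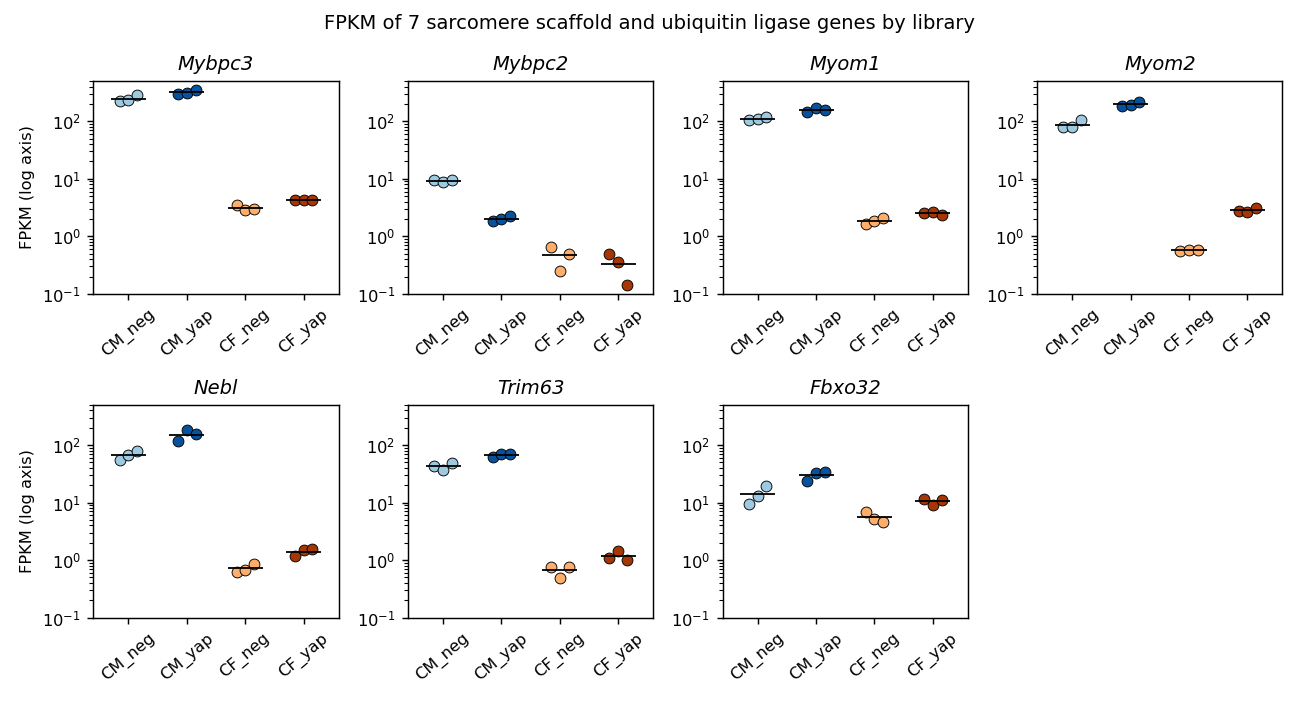
Each point is 1 library and each bar the mean of 3 libraries, in FPKM on a log axis, for 7 genes in the 4 groups. Fbxo32 is the gene with the smallest gap between cell types, Mybpc2 drops from 9.22 to 2.04 FPKM within cardiomyocytes, and the other genes are higher with Yap siRNA in both cell types.

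Cardiomyocyte markers were read beside the fibroblast levels. Mybpc3, Myom1, Myom2, Nebl and Trim63 stood in CF_neg at 0.649% to 1.67% of their CM_neg means. The 10 cardiomyocyte markers stood at 0.952% to 50.7% of theirs, with a median of 1.84%. From low to high, Ryr2 was at 0.952%, Myh6 at 1.37%, Nkx2-5 at 1.53%, Actn2 at 1.61%, Tnni3 and Pln at 1.84%, Actc1 at 1.94%, Nppa at 2.44%, Tnnt2 at 9.8% and Gata4 at 50.7%. Myom2, at 0.649%, lay below every one of these markers. Fbxo32 at 39.6% and Mybpc2 at 5.06% lay above that median. How far cardiomyocytes left in the fibroblast cultures contribute to these levels was not tested.

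**Figure D2:**
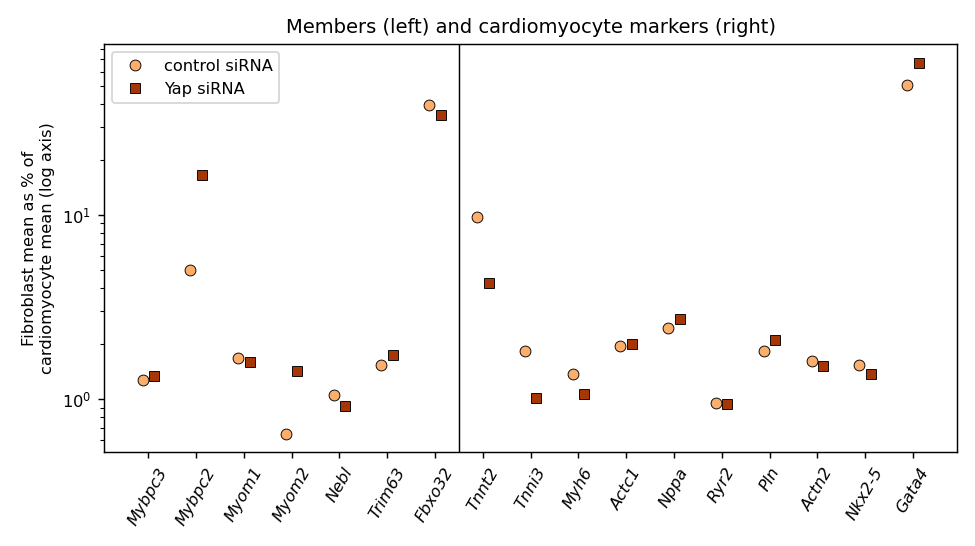
Fibroblast mean as a percentage of the cardiomyocyte mean (log axis) for the 7 genes on the left and 10 cardiomyocyte markers on the right, with control siRNA (circles) or Yap siRNA (squares). Mybpc3, Myom1, Myom2, Nebl and Trim63 lie between 0.649% and 1.73%, the markers between 0.94% and 67.2%, and Fbxo32 lies at 39.6% and 34.8%.

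With Yap siRNA, cardiomyocytes held more RNA of 6 of the 7 genes and less of Mybpc2. Of all genes tested, 49.8% were called, 21% higher and 28.7% lower (2378 and 3248 genes). With median-of-ratios scaling the split was 2964 higher and 2554 lower, and with quantile normalization 2658 and 2907; the median of all genes then was 0.01 and −0.02. Groups did not overlap for any of the 7 genes, which held for 22.7% of tested genes in the higher and 30.5% in the lower direction. The median log2 fold change of the 7 genes was 0.63, against −0.06 over all genes tested. Mybpc2 was called lower in each of the 22 other settings that tested it, and Myom1, Myom2, Nebl, Trim63 and Fbxo32 were called higher in each of 23. Mybpc3 was called higher in 22 of 23.

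Both M-band genes rose, Myom2 the more. Myom2, the M-protein gene, stood at 78.54, 80.43 and 104.4 FPKM under the control siRNA, against 186.8, 191.51 and 215.23 FPKM with Yap siRNA. Every Yap siRNA library exceeded every control library, and the mean rose 2.25 times (log2 1.17 ± 0.10 SE, limma adjusted p = 3.36e-07). Myom2 thereby moved from rank 1133 to rank 479 in the table by mean FPKM. Myom1, which encodes myomesin, stood at 103.43, 110.88 and 118.09 FPKM with control siRNA against 144.19, 170.56 and 158.25 FPKM. It rose 1.42 times (log2 0.50 ± 0.08, adjusted p = 0.00018), again without overlap.

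By FPKM, the balance between the M-band genes turned over. Within a library, the ratio of Myom2 to Myom1, which does not depend on scaling between libraries, was 0.759, 0.725 and 0.884 in CM_neg and 1.3, 1.12 and 1.36 in CM_yap. M-protein RNA in FPKM was thus below myomesin RNA in each control library and above it in each Yap siRNA library. Which of these genes comes out higher depends on the transcript lengths used, which are not given. The log2 ratio rose by 0.67 without overlap (exact permutation test, two-sided, p = 0.1, the smallest that 3 against 3 libraries allow; adjusted p = 0.2 over 6 ratio tests).

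The myosin-binding protein C genes went opposite ways. Mybpc3, the cardiac form, stood at 222.64, 236.53 and 280.79 FPKM under the control siRNA, against 297.8, 315.62 and 352.98 FPKM with Yap siRNA. It rose 1.31 times (log2 0.39 ± 0.09, limma adjusted p = 0.00238), the smallest rise among the 6 genes. Its call was lost without CM_neg 1 and CM_yap 3 together (log2 0.25, adjusted p = 0.0611). Mybpc2, the fast skeletal form, stood at 9.5, 8.8 and 9.37 FPKM under the control siRNA, against 1.88, 1.97 and 2.26 FPKM with Yap siRNA. It fell to 22.1% of control (log2 −1.75 ± 0.13, adjusted p = 1.07e-07), with no overlap and little spread in either group. The Mybpc2 to Mybpc3 ratio within a library went from 0.0376 to 0.00632 (geometric means over 3 libraries, a log2 change of −2.57; exact permutation p = 0.1, adjusted p = 0.2). Of the other genes of this family, named after their values were seen, Mybph, which encodes myosin-binding protein H, rose from 0.74 to 3.47 FPKM (log2 1.40 ± 0.17, adjusted p = 1.29e-05), and Mybphl went from 1.08 to 2.4 FPKM (0.75 ± 0.21, adjusted p = 0.00864). Mybph passed the filter on low values through its Yap siRNA groups, so that a rise was favoured. Mybpc1, the slow skeletal form, stood at 0.01 and 0.04 FPKM and was under the filter.

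Markers of skeletal muscle were read beside Mybpc2. Of 16 in the table, 5 passed the filter on low values, of which Myh3 and Cacna1s passed through CM_neg alone, so that a fall was favoured and the falls give no support. Those that fell with Yap siRNA in cardiomyocytes were the embryonic myosin gene Myh3 (2.61 to 0.573 FPKM, log2 −1.20 ± 0.12), the acetylcholine receptor gene Chrna1 (18.1 to 3.43 FPKM, −2.16 ± 0.18) and the calcium channel gene Cacna1s (6.09 to 0.137 FPKM, −2.64 ± 0.12). Chrna1 was also at 24 FPKM in CF_neg and 19.5 FPKM in CF_yap, so it did not mark muscle in these cultures. Tnnt3, a fast troponin gene, was at 0 and 0.15 FPKM and did not pass (adjusted p = 0.351). Ckm, which heart muscle also expresses, rose (96.3 to 265.9 FPKM, 1.46 ± 0.13) and made up most of the summed level, 112.1 to 141.5 FPKM in CM_neg; in CM_yap it was 303.2 FPKM at most. The defining skeletal regulators were at or near 0: Myf5 was listed at 0 in both cardiomyocyte groups, and Myod1 and Myog had means of 0.0933 and 0.0267 FPKM in CM_neg. Tnni2 was listed at 0 in both groups too.

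Nebl, the nebulette gene, stood at 55.68, 66.03 and 80.06 FPKM under the control siRNA, against 117.52, 184.41 and 152.76 FPKM with Yap siRNA. It rose 2.25 times (log2 1.15 ± 0.15, limma adjusted p = 1.71e-05), with the widest spread of the 7 genes in CM_yap (33.5 FPKM SD) but no overlap. With Yap siRNA its libraries overlapped those of Myom1, which had been above it with control siRNA.

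Both ubiquitin ligase genes rose. Trim63 stood at 43.21, 37.38 and 49.44 FPKM under the control siRNA, against 62.59, 68.49 and 71.03 FPKM with Yap siRNA (1.55 times, log2 0.63 ± 0.11, limma adjusted p = 0.000331). Its promoter, like that of Mybpc2 and 12.1% of all windows, holds the TEAD core shown above, and these 2 genes moved in opposite directions. Whether Yap acts at these sites was not tested. Fbxo32 stood at 9.52, 13.18 and 19.23 FPKM against 24, 32.71 and 33.85 FPKM (2.16 times, log2 1.09 ± 0.20, adjusted p = 0.000312). The highest control library of Fbxo32 lay below the lowest Yap siRNA library. The Trim63 to Fbxo32 ratio went from 3.21 to 2.25, and its libraries overlapped between the groups (exact permutation p = 0.2, adjusted p = 0.24).

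**Figure D3:**
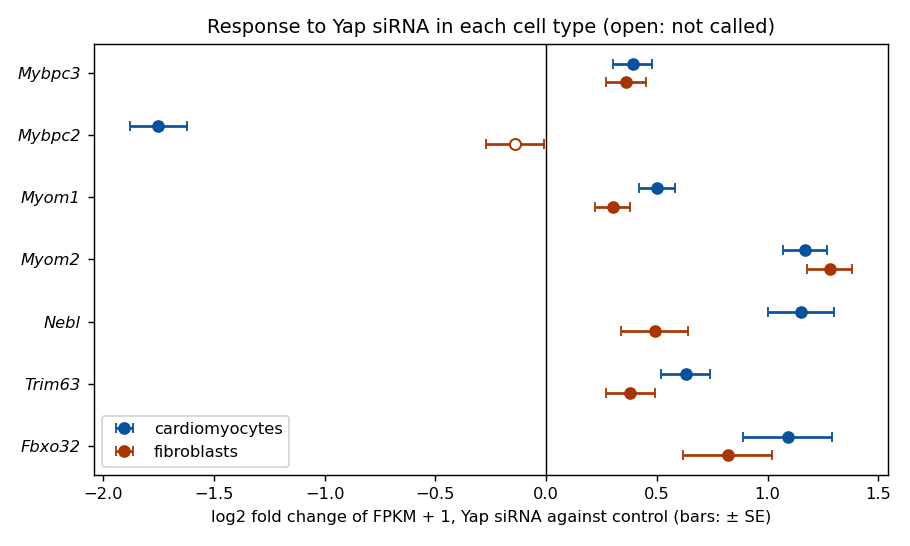
Log2 fold change of FPKM + 1 with Yap siRNA against control for each gene in cardiomyocytes (blue) and fibroblasts (brown), with bars of 1 SE from limma; the open point was not called. Only Mybpc2 lies below 0, at −1.75 in cardiomyocytes and −0.14 in fibroblasts.

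Some libraries stood at the edge of their group for most of these genes. CM_neg 3 was the highest of its group for 6 of the 7 genes and CM_neg 1 the lowest for 5. CM_yap 1 was the lowest of its group for all 7 genes and CM_yap 3 the highest for 5. Without CM_neg 1 and CM_yap 3, which narrows most of the rises, 5 genes were called higher and 1 lower. Marker sums moved beside the response: the cardiomyocyte markers summed to 28300.5 to 30954.3 FPKM in CM_neg and 32457.4 to 35100.1 FPKM in CM_yap, a ratio of mean sums of 1.15. Of these 10 markers 5 were called higher and 4 lower. Endothelial markers went from sums of 559.6 to 664.6 FPKM to 408.4 to 474.9 FPKM, with 1 of 10 called higher and 5 lower. Fibroblast marker sums overlapped (346.0 to 502.1 against 392.3 to 485.5 FPKM), with 4 of 10 called higher and 0 lower. Leukocyte sums overlapped too (157.6 to 190.3 against 145.0 to 192.7 FPKM), but 6 of 10 were called lower, Cd14 (−0.72) and C1qb (−0.69) among them, and 2 higher, Cd68 (0.55) and Tyrobp (0.40). Smooth muscle and pericyte sums were 755.5 to 785.0 and 811.1 to 869.2 FPKM, with 6 of 10 called higher and 2 lower. Des alone, at 670.1 and 725.9 FPKM, made up most of these sums and was not called (limma adjusted p = 0.105). The part of these shifts in the response was not tested.

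In fibroblast cultures, Yap siRNA was followed by higher RNA of the same 6 genes, all at low levels except Fbxo32. Of all genes tested, 30.9% were called, 20.4% higher and 10.5% lower (2311 and 1184 genes). The split was 1936 to 1561 with median-of-ratios scaling and 1600 to 1852 with quantile normalization. Groups did not overlap for these 6 genes, as for 31.4% of tested genes in the higher direction and 17.7% in the lower. The largest change was that of Myom2, at 0.55, 0.57 and 0.59 FPKM with control siRNA and 2.78, 2.64 and 3.06 FPKM after Yap siRNA. Its mean rose 4.96 times, with very tight libraries in both groups (log2 of FPKM + 1 1.28 ± 0.10, limma adjusted p = 2.37e-07). The Myom2 to Myom1 ratio was 0.335, 0.308 and 0.286 with control siRNA and 1.08, 1 and 1.32 with Yap siRNA, a rise of 1.86 on the log2 scale (exact permutation p = 0.1, adjusted p = 0.2). As a share of the cardiomyocyte level under the same siRNA, Myom2 went from 0.649% to 1.43%.

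**Figure D4:**
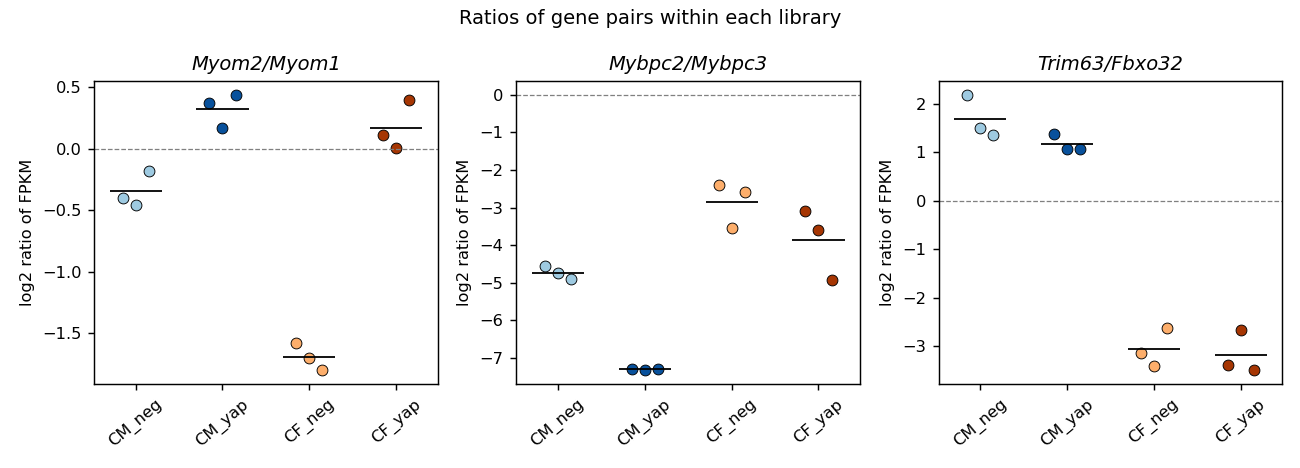
Log2 ratio of FPKM within each library for 3 gene pairs, with the mean of 3 libraries as a bar; the dashed line marks equal levels. Myom2 passes Myom1 with Yap siRNA in both cell types, and Mybpc2 falls from 0.0376 to 0.00632 of Mybpc3 in cardiomyocytes.

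Fbxo32 was the gene with a sizeable level in fibroblasts. It stood at 6.74, 5.25 and 4.62 FPKM under the control siRNA, against 11.47, 8.99 and 11.1 FPKM with Yap siRNA (1.9 times, log2 0.82 ± 0.20, limma adjusted p = 0.00508). Its rise was called under each of the 23 other settings, as was that of Myom2.

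The other fibroblast calls were smaller on the log2(FPKM + 1) scale and less stable. By the means, Nebl rose 1.96 times, Trim63 1.75 times, Mybpc3 1.37 times and Myom1 1.36 times, against 1.9 times for Fbxo32. Mybpc3 went from 3.13 to 4.27 FPKM (0.36 ± 0.09, adjusted p = 0.00744) and lost its call with a pseudocount of 5 (adjusted p = 0.0873) and under quantile normalization (adjusted p = 0.125). Myom1 went from 1.85 to 2.51 FPKM (0.30 ± 0.08, adjusted p = 0.0132), Nebl from 0.713 to 1.4 FPKM (0.49 ± 0.15, adjusted p = 0.021) and Trim63 from 0.667 to 1.17 FPKM (0.38 ± 0.11, adjusted p = 0.0201). All 3 lost their calls in the same settings (adjusted p = 0.0958 to 0.378). Myom1 also lost its call without CF_neg 1 (adjusted p = 0.064). Nebl lost its call without CF_neg 1 (adjusted p = 0.0721), CF_neg 2 (0.0582), CF_yap 2 (0.0622) or CF_yap 3 (0.0682). Trim63 lost its call without CF_neg 2 (adjusted p = 0.0904) or CF_yap 2 (0.0879). Mybpc2, at 0.467 and 0.333 FPKM, did not pass (−0.14 ± 0.13, adjusted p = 0.474).

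Marker levels moved beside these genes in the fibroblast cultures too. The sum of the cardiomyocyte markers was 1050.4 to 1114.3 FPKM in CF_neg and 857.4 to 950.4 FPKM in CF_yap, with 3 of 10 called higher and 3 lower. Myh6 (0.80), Pln (0.72) and Tnni3 (0.37) rose and Actc1 (−0.55) and Actn2 (−0.39) fell, each in the direction it took in cardiomyocytes, while Tnnt2 (−0.47) fell here and rose there. Endothelial sums went from 172.0 to 197.0 FPKM up to 219.5 to 239.1 FPKM, with 4 of 10 called higher and 0 lower. Eng alone, at 174.2 and 208.8 FPKM, made up most of these sums and was not called (limma adjusted p = 0.0555). Smooth muscle and pericyte sums went from 419.0 to 464.2 FPKM down to 338.7 to 348.9 FPKM, with 4 called higher and 4 lower. Fibroblast sums (16740.4 to 17713.1 against 17553.8 to 17761.3 FPKM) and leukocyte sums (216.5 to 237.8 against 227.4 to 263.4 FPKM) overlapped, with 4 and 0 of 10 called higher and 0 lower in both. The share of cardiomyocyte RNA in each fibroblast library was not estimated, and the part of these shifts in the rises was not tested.

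The difference between the Yap effects, cardiomyocytes minus fibroblasts, was called for Mybpc2 and Nebl. Of all genes tested, 35.3% were called, 11.7% higher and 23.7% lower (1320 and 2673 genes), against 1887 to 1736 with median-of-ratios scaling and 1801 to 1716 with quantile normalization. The median over all genes was −0.13 on the values as deposited and −0.01 or 0.00 after median-of-ratios scaling or quantile normalization. Mybpc2 fell more in cardiomyocytes (difference −1.62 ± 0.19, limma adjusted p = 1.68e-05). At 0.467 FPKM in CF_neg it had little room to fall on this scale, so with the cardiomyocyte fall a negative difference was set in advance. Nebl rose more in cardiomyocytes on the scale used (0.67 ± 0.21, adjusted p = 0.0229), though its fold rises by the means were 2.25 and 1.96. With a pseudocount of 0.1 that difference was 0.28 and not called (adjusted p = 0.41), and it was also lost without CM_neg 1 (0.0652), CM_yap 2 (0.0586), CF_neg 3 (0.0557) or CF_yap 1 (0.0562), and without CM_neg 1 and CM_yap 3 together (0.0994). The difference for Myom2 was −0.11 ± 0.14 (adjusted p = 0.569) and turned with the pseudocount: it was called lower with 0.1 (−0.94, adjusted p = 0.000427) and higher with 5 (0.65, adjusted p = 0.000981). Mybpc3 (0.03), Myom1 (0.20), Trim63 (0.25) and Fbxo32 (0.27) did not pass (adjusted p = 0.204 to 0.868).

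Beside the list counts below, tested genes called higher and lower made up 21% and 28.7% in cardiomyocytes and 20.4% and 10.5% in fibroblasts. Around the 7 genes, partners of the thick filament and M-band mostly rose in cardiomyocytes. Of 14 tested from a list of 19, 10 rose and 1 fell (median 0.66, against −0.06 for all genes). The light chain gene Myl7 (2.04 ± 0.14), Ckm, whose creatine kinase docks at the M-band (1.46 ± 0.13), and Myh6, the alpha myosin heavy chain gene (1.18 ± 0.10), rose, while Myh7, the beta chain gene, fell (−1.40 ± 0.09). Unc45b, a myosin chaperone gene, was at 0.26 (adjusted p = 0.0562). In fibroblasts 7 of 14 rose and 2 fell, with Myh6 (0.80 ± 0.10), Ckm (0.82 ± 0.13) and Nbr1 (0.44 ± 0.06), an autophagy receptor gene that acts with titin kinase, among those that rose, and Myh7 among those that fell (−0.95 ± 0.09).

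Partners of titin at the Z-disc and I-band were mixed in cardiomyocytes, with 3 of 15 tested rising and 7 falling (median −0.23). Tcap, whose product telethonin caps titin at the Z-disc, rose from 70.7 to 205.9 FPKM (1.53 ± 0.16), and Xirp2 rose too (0.98 ± 0.15). The LIM-domain gene Fhl1 fell (−1.96 ± 0.09), as did Pdlim5 (−0.88 ± 0.07). In fibroblasts 1 of 15 rose and 5 fell, among them Ankrd1 (−0.99 ± 0.08), Nexn (−0.65 ± 0.11), Actn2 (−0.39 ± 0.07) and Cryab (−0.48 ± 0.09). Tcap had 0.11 ± 0.16 there (adjusted p = 0.636), and its effects differed between the cell types (1.42 ± 0.22, limma adjusted p = 0.000245).

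Of 14 genes of the thin filament and its length control, 7 rose and 3 fell in cardiomyocytes (median 0.30). Among the rises, Klhl40 (0.853 to 2.62 FPKM) passed the filter on low values through CM_yap alone, so that a rise was favoured. Tnni3 (1.21 ± 0.10), Tnni1 (0.85 ± 0.08) and Tnnt2 (0.73 ± 0.09), which encode troponin subunits, rose, and the skeletal actin gene Acta1 fell (−2.02 ± 0.15). In fibroblasts 1 of the 14 rose and 6 fell (median −0.12), with Acta1 (−1.30 ± 0.15), Tpm1 (−0.69 ± 0.09), Tnnc1 (−0.57 ± 0.07) and Actc1 (−0.55 ± 0.09) among the falls.

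Of 12 splicing factors and muscle RNA-binding protein genes, 3 rose and 5 fell in cardiomyocytes (median −0.05, against −0.06 for all genes). Rbfox1 rose from 0.2 to 1.42 FPKM (1.03 ± 0.15), and Celf2 (−1.05 ± 0.12), Ptbp1 (−0.71 ± 0.09) and Mbnl2 (−0.57 ± 0.09) fell. Rbfox1 passed the filter on low values through its Yap siRNA groups, so that a rise was favoured in both cell types. Rbm20, the regulator of titin splicing, named here after its value was seen, went from 40.3 to 49.3 FPKM (0.29 ± 0.11, limma adjusted p = 0.0421). In fibroblasts Rbfox1 rose (0.58 ± 0.15), and Mbnl2 (−0.35 ± 0.09), Srsf1 (−0.27 ± 0.08) and Ptbp1 (−0.26 ± 0.09) fell.

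Of 25 genes of muscle atrophy and protein turnover, 10 rose and 7 fell in cardiomyocytes (median −0.04), and 13 rose and 3 fell in fibroblasts (median 0.28, against 0.07 for all genes). The co-chaperone gene Bag3 (0.82 ± 0.05), Trim54 (0.93 ± 0.11) and Ddit4 (0.71 ± 0.10) rose in cardiomyocytes, and the IGF-1 receptor gene Igf1r fell (−0.79 ± 0.11). Trim54 (MuRF3) and Trim55 (MuRF2) are the relatives of Trim63; Trim54 went from 85.9 to 164.5 FPKM, and Trim55, from 149.6 to 134.8 FPKM, did not pass (adjusted p = 0.187). The FOXO factors, known in mouse muscle to drive Trim63 and Fbxo32, were named after their values were seen. In cardiomyocytes Foxo3 fell (8.86 to 6.01 FPKM, −0.50 ± 0.11), Foxo4 rose (11.4 to 16.5 FPKM, 0.50 ± 0.10) and Foxo1 did not pass (adjusted p = 0.173). In fibroblasts Foxo3 rose (7.85 to 15 FPKM, 0.85 ± 0.11), as did Bnip3 (0.66 ± 0.07), Gabarapl1 (0.62 ± 0.08) and Bag3 (0.40 ± 0.05), and Eif4ebp1 fell (−0.64 ± 0.06). The Foxo3 effects differed between the cell types (−1.35 ± 0.16, limma adjusted p = 1.98e-05).

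**Figure D5:**
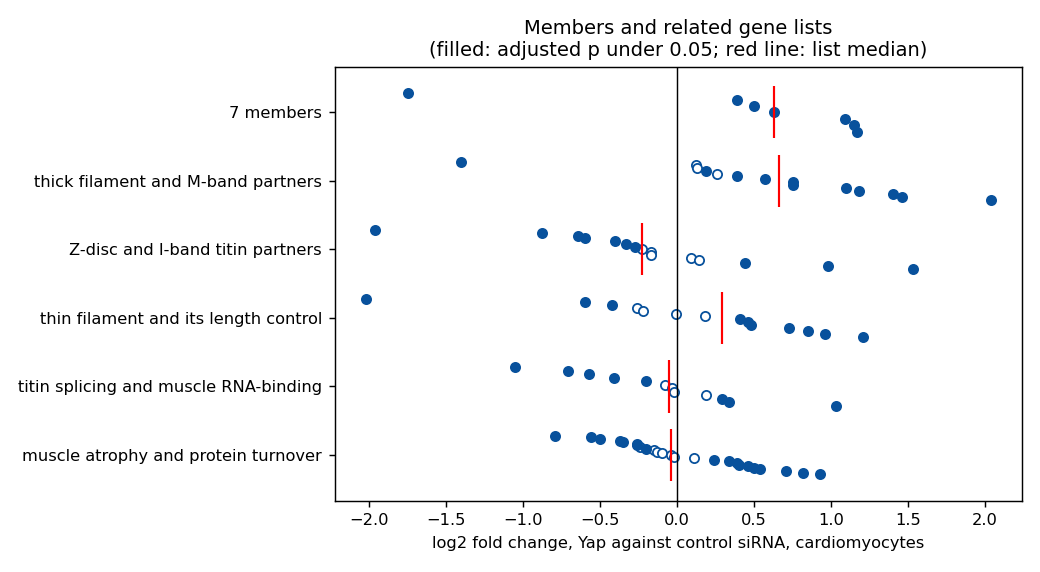
Log2 fold change in cardiomyocytes with Yap siRNA against control for the 7 genes and 5 lists of related genes; filled points have an adjusted p under 0.05 and red lines are list medians. The 7 genes and the thick filament list have medians of 0.63 and 0.66, and the Z-disc list has a median of −0.23.

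The genes whose pattern was most like that of Trim63 were sought over the 12 libraries after subtracting each cell type's mean, among 8452 genes averaging 5 FPKM or more. The closest by Pearson correlation of log2(FPKM + 1) were the lactate dehydrogenase gene Ldhb (r = 0.973), the fatty acid oxidation gene Acaa2 (0.969), the ventricular light chain gene Myl2 (0.967), Dtx3 (0.965) and the peroxisomal enzyme gene Hsd17b4 (0.964). The 12 points share groups and scaling, so this is a description of likeness.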

How the data were processed

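RNA from 12 libraries in 4 groups of 3 was measured by poly-A sequencing. Values are the authors' FPKM as deposited, per the file headers; HISAT, Bowtie2 and rn6 appear in the submitters' processing notes without versions. Quantification tool, annotation and depth: not given in the sources used here. Symbols that were blank or dates (31) were restored by gene ID where possible (29). From the deposited FPKM, log2(FPKM + 1) was computed, genes averaging 0.5 FPKM or more were kept, and all groups were fitted in limma 3.58.1 (lmFit, eBayes with trend; R 4.3.3), two-sided, with Benjamini-Hochberg adjustment. The fit was tested on simulated data. Ratios within libraries used exact permutation (scipy 1.17.1). Python 3.11.15, pandas 2.3.3 and matplotlib 3.10.9 were used.

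Genes and lists were chosen with earlier results of these data known. Named genes were the 7 genes with a row, up to 4 called genes per list and comparison with the smallest p, list genes given as not passing, and the 5 most like Trim63. List genes without a row and the ratios with Ttn or Neb were not analysed here. Alternatives were pseudocounts of 0.1 and 5, no filter or a stricter one (5 FPKM), quantile normalization, scaling by median of ratios, no trend, a replicate block, only the groups compared, and leaving out each library. Fits without CM_neg 3 and CM_yap 1, and without CM_neg 1 and CM_yap 3, were added after seeing the data.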

Additional observations from a re-analysis of the deposited data

Results flagged for a closer look

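The effect of Yap siRNA on Mybpc2 differed between cardiomyocytes and fibroblasts by −1.62 on the log2 scale (limma adjusted p = 1.68e-05, from the test of the difference itself). Mybpc2 fell from 9.22 to 2.04 FPKM in 3 of 3 cardiomyocyte libraries against every control library, and stood at 0.467 and 0.333 FPKM in fibroblasts. From 0.467 FPKM it could fall little on this scale, so that, given the cardiomyocyte fall, a negative difference was set in advance. The effect on Nebl differed by 0.67 (adjusted p = 0.0229), with 67.3 and 151.6 FPKM in cardiomyocytes and 0.713 and 1.4 FPKM in fibroblasts; this difference ranged from 0.28 to 0.97 over the settings tried.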

How the results depend on the processing

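In cardiomyocytes the calls held under each alternative that tested the gene, except that of Mybpc3 without CM_neg 1 and CM_yap 3 (0.25, adjusted p = 0.0611); the count of lower genes was 0 with the 5 FPKM filter, which leaves Mybpc2 untested. In fibroblasts the count of higher genes was 2 with a pseudocount of 5 or quantile normalization, against 6. For the difference between effects, the count of higher genes was 0 with a pseudocount of 0.1 (lower: 2), 4 with a pseudocount of 5 and 2 without CM_neg 3 and CM_yap 1 (which widens most rises by its construction) and 0 without CM_neg 1 and CM_yap 3; it ranged from 0 to 1 with a library left out, and the count of lower genes was 0 with the 5 FPKM filter. Differences that did not pass and changed sign were Mybpc3 (−0.05 with a pseudocount of 0.1, −0.04 without CM_neg 1 or CM_yap 3, −0.03 without CF_neg 1; −0.04 to 0.13 over single libraries and 0.18 without CM_neg 3 and CM_yap 1, −0.11 without CM_neg 1 and CM_yap 3), Trim63 (−0.09 with a pseudocount of 0.1) and Myom2 (0.65 with a pseudocount of 5, where it passed, 0.02 without CM_neg 3 in a range from −0.18 with 1 library left out, 0.06 without CM_neg 3 and CM_yap 1, against −0.25 without CM_neg 1 and CM_yap 3). The Trim63 to Fbxo32 log2 ratio in fibroblasts changed by −0.12, and by −0.38 to 0.10 with a library left out. The Fbxo32 difference passed without CM_neg 3 and CM_yap 1 (0.66, adjusted p = 0.0348) and was −0.05 without CM_neg 1 and CM_yap 3. The cause of these shifts was not tested. Of 633 values of single genes under alternatives, 597 kept direction and side of the threshold. Correlations of deviations were −0.123 to 0.144 for same-numbered libraries. They were 0.144, 0.0368 and 0.0861 between CM_neg and CM_yap, and −0.00162, −0.0862 and −0.123 between CF_neg and CF_yap. With 3 libraries per group, this does not settle whether the replicate numbers pair the libraries. With the replicate block, calls over all genes went from 5626 to 5547 in cardiomyocytes and from 3495 to 3412 in fibroblasts. All calls for the 7 genes remained. Read depth is unknown, so values under 1 FPKM, as in fibroblasts, carry an unknown counting error.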

Other observations

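Other nebulin-family genes in the table, chosen after their values were seen, moved the other way from Nebl in cardiomyocytes. Nrap, which encodes a nebulin-related anchoring protein of myofibril assembly, fell from 128.1 to 102.3 FPKM (log2 −0.32 ± 0.09 SE, limma adjusted p = 0.0093). Lasp1, which encodes a LIM and SH3 domain protein of the actin cytoskeleton, fell from 68.4 to 51.8 FPKM (−0.39 ± 0.08, adjusted p = 0.000935). In fibroblasts Lasp1 went from 149.4 to 126.7 FPKM (−0.24 ± 0.08, adjusted p = 0.0364) and Nrap from 1.76 to 1.31 FPKM (−0.26 ± 0.09, adjusted p = 0.0449); of 23 other settings these fibroblast calls held in 16 for Lasp1 and 11 for Nrap, and the cardiomyocyte calls in 23 and 20.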
